A study of Rattus norvegicus with 60 samples.

Results

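The miR described here is rno-miR-210, 1 of the 350 rat miRs on an Agilent 1-colour miRNA array, chosen by its name in the scanner files. It was measured in 60 retinas of male Long Evans hooded rats weighing 250 to 300 g. In the ischemia-reperfusion (IR) animals a needle in the anterior chamber of 1 eye held the intraocular pressure at 110 mmHg for 60 min, and retinas were taken at once (0 h) or 2 h, 24 h, 48 h or 7d after the pressure was released. Sham control animals went through anesthesia and cannulation without the pressure, and were sampled at the same 5 times. Each of the 10 groups held 6 arrays, each labelled as a separate sample, from 100 ng of total RNA of whole retina. The comparison asks whether the miR best known for its response to hypoxia was higher in the retina after ischemia. A lower level in such tissue may come from fewer cells of a type or from less RNA per cell, which cannot be told apart.

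When oxygen is low, hypoxia-inducible factor (HIF) is no longer hydroxylated and degraded, and it enters the nucleus and turns on its target genes. The miR-210 gene is a HIF target in many cell types, and miR-210 lowers the iron-sulphur cluster scaffold ISCU, which slows mitochondrial respiration, and the receptor ligand ephrin-A3, which bears on the growth of vessels. The retina is among the tissues with the highest oxygen use, and high intraocular pressure stops the flow in both of its circulations.

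The sequence decides which messages a miR can bind, mainly through the seed, bases 2 to 8 from the 5′ end, printed in capitals in the first line. The second line is the hairpin from which the miR is cut, with the 22 bases of the mature strand, positions 66 to 87, in capitals, and the third is the strand on the other arm. All 3 are from RefSeq (GRCr8), where the array's rno-miR-210 goes by the name rno-miR-210-3p.
rno-miR-210-3p: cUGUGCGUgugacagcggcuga
Mir210 hairpin: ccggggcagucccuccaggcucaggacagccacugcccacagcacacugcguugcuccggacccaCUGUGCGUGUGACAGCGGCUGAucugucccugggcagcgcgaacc
rno-miR-210-5p: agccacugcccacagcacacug
Of 724 mature rat miRs in that table, 1 carries the seed UGUGCGU, miR-210 itself. The nearest is rno-miR-147, which shares bases 2 to 7. In GRCr8 the hairpin lies on the minus strand of chromosome 1 within the lncRNA gene LOC102553043, between the protein-coding genes Rassf7 and Phrf1, and rno-miR-210 shares its place with another annotated hairpin, Mir3574, on the plus strand. The array holds 2 probes for it, placed by the scanner files on rn4 chromosome 1 at 201415679 to 201415693, a match of 15 bases, and at 201415679 to 201415694, a match of 16 bases. The other arm has no probe.

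rno-miR-210 was detected on 60 of 60 arrays, and none of the spots of its 2 probes, 600 for each probe, was saturated. Its total signal ran from 57 to 1369 units (median 713), with a scanner error of 8.34% of the signal at the median. The arrays themselves differed in brightness. The log2 of the 75th percentile, taken over 57 miRs that every array detected, averaged 8.16 ± 0.47 (SD, n = 6) in IR 7d and 10.7 ± 0.24 in sham control 7d, and an array detected between 59 and 232 miRs. Before scaling, the mean log2 signal of miR-210 in IR minus that in sham control was thus -1.07 at 0 h, -0.01 at 2 h, -2.05 at 24 h, -1.53 at 48 h and -2.88 at 7d. All levels below are log2 of the total signal after each array was scaled to a common 75th percentile over those 57 miRs, of which miR-210 is one. One array stood apart from all others, sham control 48 h replicate 1. Its summed signal of the photoreceptor miRs miR-183, miR-96 and miR-182 was the lowest of 60 (13.2, against 13.6 to 14.1 on the other 59). That of the neuronal miRs miR-124, miR-9, miR-128 and miR-129 was the highest (14.4, against 13.3 to 13.98). Single members went against their sums. miR-182 lay above the other 59 arrays (10.8, against 9.40 to 9.97) and miR-9 below them (5.99, against 6.79 to 7.86). The main 48 h contrasts of miR-210 with sham control are given with and without this array. Other 48 h results include it unless stated otherwise.

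At 0 h, directly after the 60 min of ischemia, the mean level of miR-210 differed between the groups by less than their spread. The IR arrays lay at 8.97 (lowest), 9.24 (median) and 9.45 (highest), and the sham control arrays at 9.004, 9.26 and 9.39. The groups overlapped, with 3 of 6 IR arrays above the sham control mean. The log2 fold change was -0.01 (95% confidence interval -0.26 to 0.25, limma adjusted p = 0.982), and the exact two-sided permutation test gave p = 0.963. The upper end of the interval is a rise of 1.19-fold. Of the 159 miRs tested at 0 h, 6.92% passed both criteria (at least 2-fold and an adjusted p of at most 0.05), 10 of these 11 higher in IR, and 12.6% passed the adjusted p alone. miR-210 passed neither. With arrays scaled to the 75th percentile over all miRs it was lower in IR by a log2 fold change of -0.33 (adjusted p = 0.0316), and in the authors' processed table by -0.31 (0.0555).

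At 2 h the picture was alike. The IR arrays lay at 9.02, 9.30 and 9.44, and the sham control arrays at 9.10, 9.38 and 9.54. IR sat slightly lower, with no array above the highest sham control array. The log2 fold change was -0.04 (-0.30 to 0.21, limma adjusted p = 0.982; exact permutation p = 0.654), and the interval allows a rise of at most 1.16-fold. Here 5.03% of all tested miRs passed both criteria and 7.55% the adjusted p alone.

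At 24 h, when 18.2% of all tested miRs passed both criteria and 60.4% the adjusted p alone, miR-210 again passed neither. The IR arrays lay at 8.79, 8.93 and 9.16, and the sham control arrays at 8.59, 8.78 and 9.25. Every IR value fell inside the sham control range. The log2 fold change was 0.11 (-0.15 to 0.36, limma adjusted p = 0.465; exact permutation p = 0.377). Its sign turned under 8 of 18 other settings, among them quantile normalization (-0.10) and the 75th percentile over all miRs (-0.21). The interval ends at a rise of 1.28-fold.

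At 48 h and 7d miR-210 was slightly lower in IR. At 48 h the IR arrays lay at 8.47, 8.79 and 8.91, and the sham control arrays at 8.77, 8.97 and 9.85. No IR array reached the sham control mean, yet the groups overlapped. The log2 fold change was -0.33 (-0.59 to -0.08), 1.26-fold lower, with a limma adjusted p of 0.0255. It passed the adjusted p but not the 2-fold criterion, beside 54.7% and 13.8% of all tested miRs. Without sham control replicate 1, the array that stood apart, it was -0.18 with an adjusted p of 0.167.

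At 7d the IR arrays lay at 8.23, 8.65 and 8.79, and the sham control arrays at 8.70, 8.88 and 9.10. Again no IR array reached the sham control mean, 3 of 6 lay below every sham control array, and the groups overlapped. The log2 fold change was -0.30 (-0.55 to -0.05, limma adjusted p = 0.0374), 1.23-fold lower, where 59.7% of all tested miRs passed the adjusted p and 18.2% both criteria. The adjusted p exceeded 0.05 when any of 7 of the 12 arrays was left out, reaching 0.114. With normexp background correction the value was -0.07 (adjusted p = 0.615). Exact permutation tests gave p = 0.0433 at 48 h and p = 0.0368 at 7d, both 0.108 after adjustment over the 5 time points, with 0.00216 the smallest p that 6 against 6 arrays can give. The median log2 fold change over all 159 tested miRs was -0.15 at 48 h and -0.15 at 7d.

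**Figure D1:**
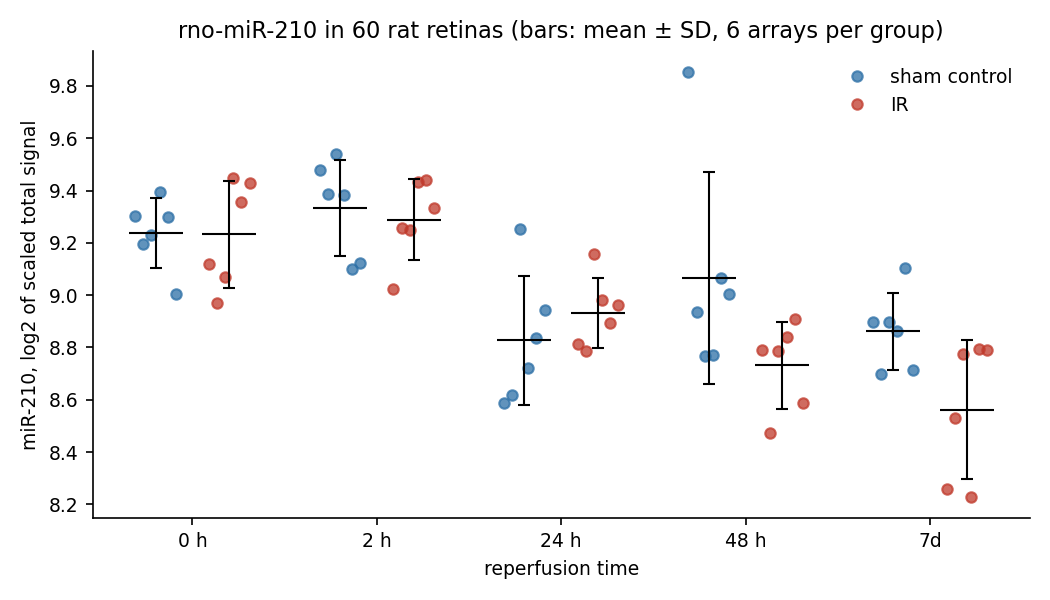
Log2 of the scaled total signal of rno-miR-210 (y axis) in each of 60 arrays by reperfusion time (x axis), sham control in blue and IR in red, with the mean ± SD of 6 arrays in black. The groups overlap at every time point, the single high sham control array at 48 h lies at 9.85, and in IR the mean runs from 9.23 at 0 h to 8.56 at 7d.

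The change of the IR effect between times was tested directly. Against 0 h the effect differed by -0.04 at 2 h (limma adjusted p = 0.988), by 0.11 at 24 h (0.679), by -0.33 at 48 h (0.245; -0.17 and 0.457 without sham control 48 h replicate 1) and by -0.29 at 7d (0.233). None passed, whereas 0.629%, 6.29%, 12.6% and 25.8% of all tested miRs did at these 4 times. The values at 48 h and 7d are therefore not shown to differ from that at 0 h. A joint F test of the 5 contrasts gave miR-210 an adjusted p of 0.0428, as 118 of 159 miRs also passed.

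**Figure D2:**
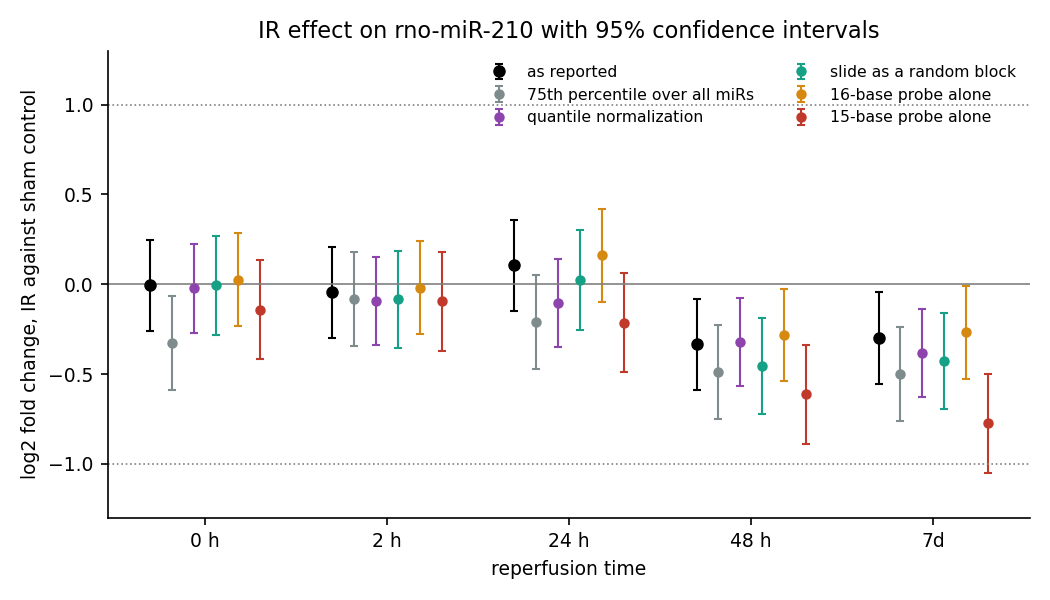
Log2 fold change of rno-miR-210 in IR against sham control (y axis) with 95% confidence intervals at each reperfusion time (x axis), as reported (black) and under 5 other settings. Dotted lines mark a 2-fold change. All upper ends stay far below the upper line, and at 24 h the sign depends on the setting.

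Level against time within each treatment showed more than the contrast between treatments. In IR, miR-210 was 9.23 ± 0.20 (mean ± SD, n = 6) at 0 h, 9.29 ± 0.15 at 2 h, 8.93 ± 0.13 at 24 h, 8.73 ± 0.17 at 48 h and 8.56 ± 0.27 at 7d. Against IR 0 h it was lower by 0.30 on the log2 scale at 24 h (-0.30, limma adjusted p = 0.0797), and it fell at 48 h (-0.50, adjusted p = 0.00261) and at 7d (-0.67, adjusted p = 3.61e-05), the last being 1.59-fold. At 2 h the difference was 0.06 (adjusted p = 0.930). Of all tested miRs, 0.629% passed the adjusted p at 2 h, 22.6% at 24 h, 28.9% at 48 h and 36.5% at 7d. This comparison within IR was added after the data were seen.

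Sham control retinas also had lower values late, though only 7d passed the adjusted p. Their levels were 9.24 ± 0.13 at 0 h, 9.33 ± 0.18 at 2 h, 8.83 ± 0.25 at 24 h, 9.07 ± 0.40 at 48 h and 8.86 ± 0.15 at 7d. Against sham control 0 h the differences were 0.10 at 2 h (limma adjusted p = 0.995), -0.41 at 24 h (0.0888), -0.17 at 48 h (0.563) and -0.38 at 7d (0.0472). At 7d the adjusted p was passed by 10.1% of all tested miRs, against 0.0% at 2 h, 0.0% at 24 h and 0.629% at 48 h. At the first 2 of these times 1 and 25 miRs had an unadjusted p under 0.05. Left-out arrays moved the adjusted p at 7d between 0.0209 and 0.166. Without the array that stood apart, sham control at 48 h averaged 8.91 ± 0.14 (SD, n = 5), and its difference from 0 h was -0.33 (adjusted p = 0.0917).

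Ordered by mean, the 10 groups ran from sham control 2 h (9.33) through IR 2 h, sham control 0 h, IR 0 h, sham control 48 h, IR 24 h, sham control 7d, sham control 24 h and IR 48 h to IR 7d (8.56). The 4 groups of 0 h and 2 h thus held the 4 highest places. Without its replicate 1, sham control 48 h averaged 8.91 and lay under IR 24 h (8.93). The ends lay 0.77 apart on the log2 scale, 1.71-fold. No group differed from its neighbour in this order by more than their pooled SD, the widest gap being 0.17.

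The arrays lay on 9 slides scanned on 3 days, and slide moved with both treatment and time. No slide held IR and sham control arrays of the same time point. IR was lower late on each of the 3 slides that held IR arrays of both phases. On slide 1 the 5 IR arrays of 0 h and 2 h averaged 9.09 and the 3 later ones 8.80. On slide 4 the averages were 9.37 and 8.95, and on slide 7 they were 9.40 and 8.81. In none of the 3 did early and late IR arrays overlap. For sham control, slide 8 alone held several arrays of both phases, 3 early ones at 9.07 and 4 late ones at 9.03. These overlapped. On slide 5 the lone late sham control array, from 24 h, lay at 9.25 beside 4 early ones between 9.30 and 9.54. The remaining late sham control arrays sat on slides 3, 6 and 9, which held no early array, so that for them slide and time cannot be told apart.

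**Figure D3:**
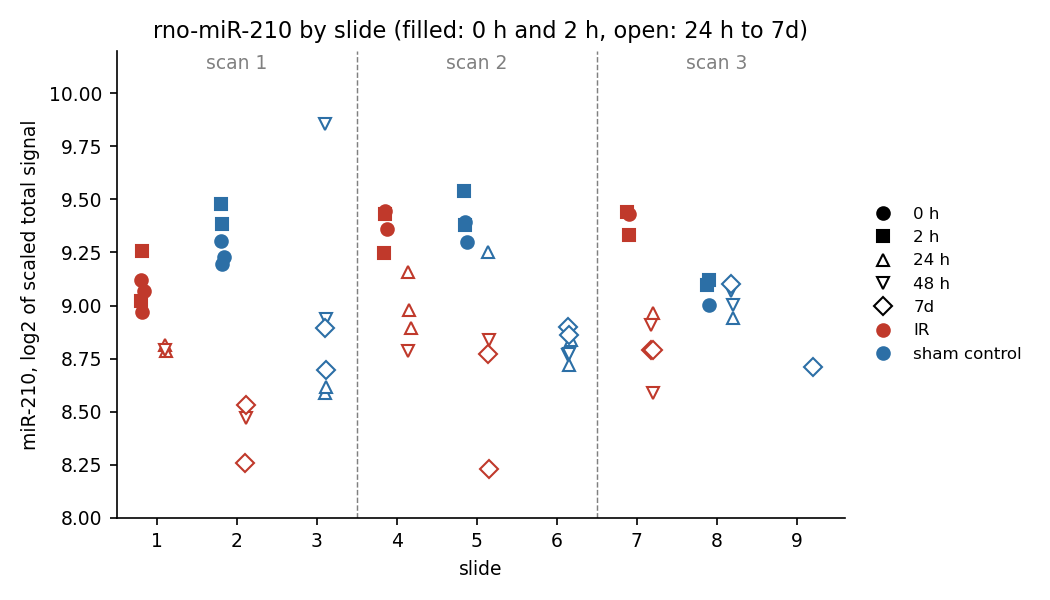
Log2 of the scaled total signal of rno-miR-210 (y axis) by slide (x axis), with IR in red, sham control in blue, early times filled and late times open. Late IR arrays lie under the early ones on slides 1, 4 and 7, whereas sham control arrays of slide 8 overlap, at means of 9.07 and 9.03.

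With slide as a random block the IR effect was -0.01 at 0 h, -0.08 at 2 h, 0.02 at 24 h, -0.46 at 48 h (limma adjusted p = 0.00389) and -0.43 at 7d (0.00555). The fall within IR kept its size, -0.54 at 48 h and -0.72 at 7d, while the sham control difference at 7d became -0.30 with an adjusted p of 0.289. A fixed block for slide compares IR with sham control only through slides that hold other times. Only 2 slides held both treatments, so the link between treatments rests on them. Slide 2 held 3 late IR and 5 early sham control arrays. Slide 5 held 3 late IR arrays beside 4 early and 1 late sham control arrays. With this block the IR effect was -0.22 at 0 h, -0.34 at 2 h, -0.42 at 24 h, -0.88 at 48 h (limma adjusted p = 0.000191) and -0.84 at 7d (0.000152). The change of the effect from 0 h to 48 h, -0.66, passed with an adjusted p of 0.0191. The sham control differences were then 0.17 at 48 h and 0.02 at 7d.

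Each scan day held both treatments. At 0 h the IR value minus the sham control value was -0.19, 0.06 and 0.43 on the 3 days, and at 2 h it was -0.29, -0.12 and 0.28. Its sign thus changed between days at both early times. At 24 h it was 0.20, 0.07 and 0.02, at 48 h -0.76, 0.04 and -0.29, and at 7d -0.40, -0.38 and -0.12. Only at 24 h and 7d did all 3 days share a sign, and each day's value rests on 1 to 3 arrays per group.

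The 2 probes of rno-miR-210 differed in brightness and in part in outcome. The probe with 16 matched bases had a median of 852 units and all 10 spots well above background on 59 arrays. The probe with 15 bases had a median of 231 units, and on 6 arrays, all of IR 24 h or IR 7d, some or all of its spots were not well above background. The log2 ratio of the longer to the shorter probe averaged between 1.71 and 1.94 in the 5 sham control groups and between 2.01 and 2.22 in the 5 IR groups. Alone, the longer probe gave log2 fold changes of 0.03, -0.02, 0.16, -0.28 (limma adjusted p = 0.0582) and -0.27 (0.0669) from 0 h to 7d. The shorter gave -0.14, -0.09, -0.21, -0.61 (adjusted p = 0.000187) and -0.77 (4.77e-06). Neither probe showed a rise that passed the test. The part of array brightness in this gap was not tested.

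Other miRs tied to hypoxia give the surroundings of this result. A list of 18 miRs described as raised in hypoxic cells was on the array in full, and all 18 were tested. At 0 h 0 of 18 passed both criteria in limma, with an unadjusted p under 0.05 for 1 of them. Of all 159 tested miRs 6.92% passed both criteria at 0 h and 40 had such an unadjusted p. The count of calls was 1 at 2 h, 1 at 24 h, 2 at 48 h (also 2 without sham control replicate 1) and 1 at 7d, all higher in IR, beside 5.03%, 18.2%, 13.8% and 18.2% of all tested miRs called in either direction at these times. The list's median log2 fold change was -0.01 at 0 h, -0.05 at 2 h, -0.14 at 24 h, -0.19 at 48 h and -0.12 at 7d, beside 0.02, -0.01, -0.13, -0.15 and -0.15 over all tested miRs. By the adjusted p alone 3 members were higher and 7 lower at 24 h, 3 and 9 at 48 h, and 3 and 6 at 7d. Over all 159 tested miRs 39 were higher and 57 lower at 24 h, 31 and 56 at 48 h, and 32 and 63 at 7d, so the list's counts lay near the shares over all miRs.

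The members that passed both criteria were 2. miR-21, a miR that rises in many injured tissues, was 8.08 ± 0.09 in IR and 8.04 ± 0.27 in sham control at 0 h (log2 fold change 0.04, limma adjusted p = 0.916). It rose at 24 h, with IR arrays between 10.5 and 10.995 and sham control arrays between 8.33 and 8.76 (log2 fold change 2.21, adjusted p = 2.13e-16), at 48 h (2.20, adjusted p = 2.46e-16) and at 7d (1.23, adjusted p = 4.28e-08). Its call at 24 h was lost without normalization (0.06, adjusted p = 0.856). That at 7d came under 2-fold in the authors' processed table (0.98) and with array brightness as a covariate (0.96), and turned to -1.35 without normalization. miR-93, of the miR-17 family that targets cell cycle inhibitors, rose at 2 h (1.03, adjusted p = 0.00259) and at 48 h (1.15, adjusted p = 6.69e-05), with an adjusted p of 0.0691 at 0 h (0.64). It was detected on 47 of 60 arrays and lay near the detection limit, so these folds are less certain. The call at 2 h was lost under 4 other settings that gave a value, among them normexp (0.23, adjusted p = 0.999) and quantile normalization (0.90, adjusted p = 0.0225), and that at 48 h under 4, among them quantile normalization (0.99, adjusted p = 0.00145) and no normalization (-0.041).

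A second list held 9 miRs described to act on HIF-1alpha, its hydroxylases or its degradation. Of these, 8 were on the array and 2 were tested, the others being detected on between 0 and 28 arrays. miR-20b-5p, described as a repressor of HIF-1alpha, rose at 2 h (log2 fold change 1.63, limma adjusted p = 0.00603) and at 48 h (1.42, adjusted p = 0.00455). It was detected on 39 arrays, and on 3 of 6 sham control arrays at 2 h, so its sham control level there is in part only a bound. The call at 2 h was lost with normexp (0.30, adjusted p = 0.999), with slide as a block (1.37, adjusted p = 0.252) and without normalization (1.56, adjusted p = 0.0567), and that at 48 h without normalization (0.23, adjusted p = 0.663), with the mean of processed signals (1.10, adjusted p = 0.0548) and when values were floored at the highest detection limit (0.060, adjusted p = 0.0725). miR-138, also described to act on HIF-1alpha, passed both criteria as lower at 24 h (measured means 3.12 in IR and 4.30 in sham control, adjusted p = 2.81e-07) and at 7d (2.76 and 4.40, adjusted p = 1.75e-10). It was tested only because it was detected on all 6 arrays of sham control 7d, a group where it was high, so these p-values are no independent support for a lower level. It was detected on 0 of 6 IR arrays at either time and its sham control mean lay under the mean detection limit of those arrays (4.67 at 24 h and 4.86 at 7d), so no fold can be given. Neither miR-210 nor any member of the 2 lists was called at 0 h. By the limma adjusted p alone miR-138 passed as lower at 0 h (0.00485) and at 48 h (1.13e-05). It was detected on 1 of 6 IR arrays at each of these times, and its p-values there have the same limit.

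**Figure D4:**
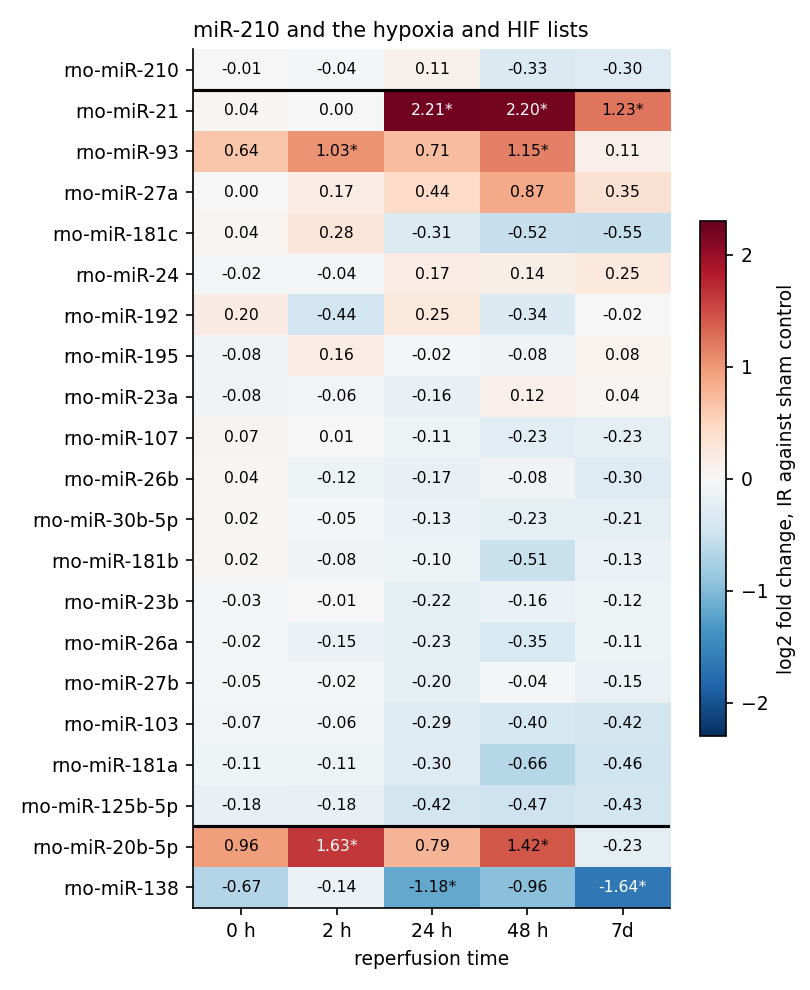
Log2 fold change in IR against sham control (colour and printed value) at each reperfusion time (columns) for rno-miR-210 (top), 18 miRs described as raised by hypoxia and 2 tested miRs described to act on HIF (bottom). Stars mark calls with at least a 2-fold change and an adjusted p of at most 0.05, and rno-miR-210 has none while miR-21 has 3. The starred values of miR-138 at 24 h and 7d are measured values only. It was detected on 0 of 6 IR arrays there, so they are no fold.

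Which miRs ran most like miR-210 was asked across all 60 arrays, over the 138 other tested miRs detected on at least 30 of them. The highest Pearson r was that of miR-129, a miR abundant in neurons, at 0.926, followed by miR-181b (0.775), miR-107 (0.773), miR-181c (0.742) and miR-181a (0.713), where the median over the 138 was 0.141. After each group's mean was subtracted the first was again miR-129 (0.840), followed by miR-181b (0.735), miR-181c (0.676), miR-181a (0.660) and let-7b (0.633). For miR-129 r was 0.919 over the 30 IR arrays, 0.930 over the 30 sham control arrays and 0.944 in the authors' processed table. These values describe arrays that share scaling, slides and labelling. At the other end across the 60 arrays stood miR-21, with r = -0.536. After each group's mean was subtracted its r was -0.221, at rank 116 of 138. Without sham control 48 h replicate 1 the values within groups were 0.833 for miR-129, 0.584 for miR-181b, 0.585 for miR-181c, 0.474 for miR-181a and 0.455 for let-7b, so that the array that stood apart carried part of the latter 4.

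miR-129 also had time and treatment values close to those of miR-210. Its log2 fold changes in IR against sham control were -0.06 at 0 h, -0.06 at 2 h, 0.13 at 24 h, -0.29 at 48 h (limma adjusted p = 0.0475, and 0.171 without sham control replicate 1) and -0.20 at 7d (0.169). Its sham control differences from 0 h were 0.10, -0.35, -0.20 and -0.44. In the 3 miR-181 members the fold changes at 48 h were larger, -0.66 for miR-181a, -0.51 for miR-181b and -0.52 for miR-181c, and -0.49, -0.35 and -0.42 without that array. The mature strands of these companions in RefSeq, matched by name with the arm added and with bases 2 to 8 in capitals, show that none shares the seed of miR-210 and that the miR-181 members share one among themselves.
rno-miR-129-5p: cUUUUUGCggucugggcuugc
rno-miR-181a-5p: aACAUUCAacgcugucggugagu
rno-miR-181b-5p: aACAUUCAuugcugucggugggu
rno-miR-181c-5p: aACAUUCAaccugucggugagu
rno-miR-107-3p: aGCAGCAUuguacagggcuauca

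**Figure D5:**
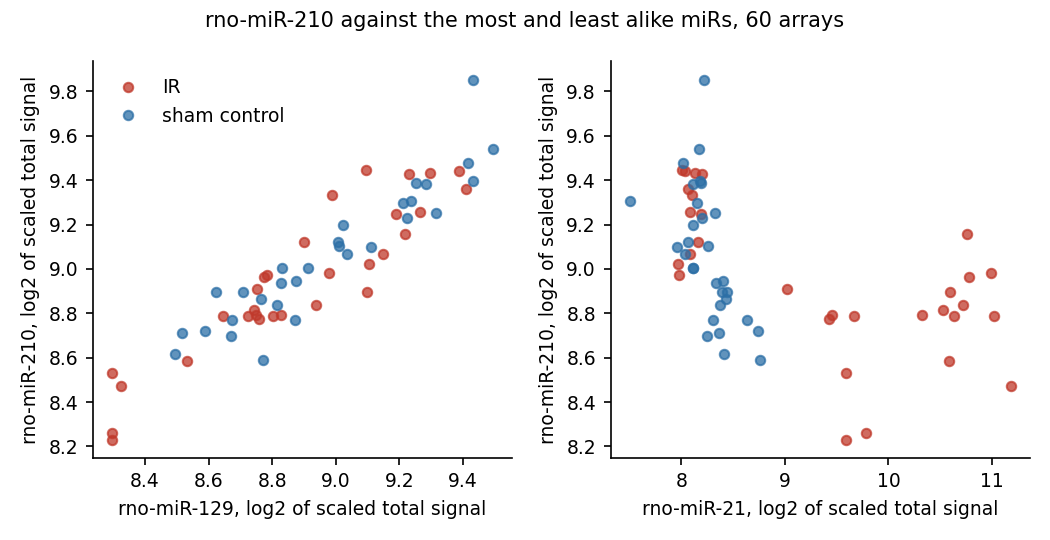
Log2 of the scaled total signal of rno-miR-210 (y axes) against miR-129 (left, r = 0.926) and miR-21 (right, r = -0.536) on 60 arrays, IR in red and sham control in blue. miR-210 and miR-129 lie along 1 line in both treatments. The IR arrays of 24 h, with miR-21 between 10.5 and 10.995, have miR-210 between 8.79 and 9.16, where all 60 arrays run from 8.23 to 9.85. After each group's mean was subtracted r with miR-21 was -0.221.

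Markers of retinal cells were present as the tissue label says. The photoreceptor miRs miR-183, miR-96 and miR-182 were each detected on 60 arrays, as were miR-124 and miR-9 of neurons. Of 3 photoreceptor, 4 neuronal and 4 glial marker miRs, 0 passed both criteria at any time in limma, and an unadjusted p under 0.05 was reached by 0 at 0 h, 0 at 2 h, 5 at 24 h, 6 at 48 h and 4 at 7d, beside 40, 19, 105, 90 and 101 of all 159 tested miRs. Of 3 pigment epithelium markers 1 was called at any time, miR-184, lower in IR at 7d. Its log2 fold change there was -3.34 (confidence interval -5.51 to -1.17, limma adjusted p = 0.00713), beside 18.2% of all tested miRs called. At the other times miR-184 did not pass the adjusted p, with 0.96 at 0 h, 1.85 at 2 h, -1.71 at 24 h and -0.12 at 48 h. It was detected on 33 arrays in all, so some of its values are only bounds. The markers miR-204 and miR-211 had log2 fold changes of -0.11 and -0.10 at 7d. Of 7 red cell and leukocyte miRs, miR-144, miR-142-3p and miR-142-5p were detected on no array, miR-451 and miR-146a on 1 each, miR-223 on 16 and miR-150 on 23. The summed signal of these 7 was higher in IR with no overlap at 24 h (5.96 to 7.20 in IR, 5.50 to 5.95 in sham control) and at 7d (6.03 to 6.93 and 5.56 to 5.96), and overlapped at 48 h (5.83 to 7.16 and 5.56 to 5.94). miR-150, the only one of the 7 that was tested, had lower measured values in IR. Its log2 fold changes were -0.37 at 24 h (limma adjusted p = 0.0853), -0.73 at 48 h (0.0013) and -0.96 at 7d (3.5e-05). It was tested only because it was detected on all 6 arrays of a group, and on arrays where it was not detected its value is only a bound. These p-values are therefore no independent support for a lower level. The sum includes signal of miRs that were not detected, and the IR arrays were on average dimmer at these times. The part of array brightness in the sum was not tested, nor was the part of these miRs in the miR-210 values. The muscle miR-206, however, was higher in IR at every time point, by 2.04 on the log2 scale at 0 h, 2.33 at 2 h, 1.91 at 24 h, 1.96 at 48 h and 1.34 at 7d, while miR-133a was detected on no array and miR-1 on 11. The summed signal of the 3 muscle miRs ran from 7.07 to 8.61 in IR and from 4.22 to 7.37 in sham control at 0 h. Its part in the miR-210 values was not tested either.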

How the data were processed

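Agilent Feature Extraction (version 9.5.3.1, build rn4) files held the intensity of each spot and a total gene signal per miR, as deposited by the authors, with background subtracted. The authors' processed table of 219 features holds log2 values shifted by 1 constant per array and was used as an alternative; each column's median lay between -0.86 and -0.41. Total signals were scaled to the 75th percentile of 57 miRs that every array detected, floored at 6.20 units and log2-transformed. The 159 of 350 miRs detected on all 6 arrays of a group were fitted in limma (3.58.1, R 4.3.3) with 10 group means and Benjamini-Hochberg adjustment over all 159. A call between groups needed a 2-fold change and an adjusted p of at most 0.05, and a change of the IR effect the adjusted p alone. Exact permutation tests (924 regroupings, two-sided) used Python 3.11.15. The limma step was tested on simulated data.

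Members and lists were chosen with earlier results of these data known. From each list the members called at any time were named, at most 4 by size, and the 5 miRs of highest Pearson r. Same-numbered IR and sham control arrays of a time point shared a scan day but were not paired in the fit (correlations of deviations -0.449 to 0.601). Alternatives were 15 planned settings, 3 added after the data were seen, and each array left out. Precision is limited by 6 arrays per group. The p-values set a difference against the spread between arrays of a group, in which animal and slide are not separated.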

Additional observations from a re-analysis of the deposited data

Results flagged for a closer look

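Sham control 48 h replicate 1 had a miR-210 level of 9.85, far above the nearest other array of its group (9.07), and is the highest of all 60. Its gap takes 0.725 of the group's range, where 0.625 is the limit for 6 arrays. On the same array miR-9 was at 5.99, below the 6.79 to 7.86 of the other 59, and miR-182 at 10.8, above their 9.40 to 9.97. Its part in the 48 h value of miR-210 is given in the report by leaving it out. Of the 28 groups examined in this way for miR-210 and the 4 named list members, 3 held such an array, where chance gives about 1 in 20. The others were IR 7d replicate 5 for miR-138 (3.25) and sham control 48 h replicate 4 for miR-20b-5p (2.87), both near the detection floor.

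The IR effect on miR-21 differed from that at 0 h by 2.17 at 24 h (limma adjusted p = 1.59e-10), by 2.16 at 48 h (1.79e-10) and by 1.19 at 7d (0.000702). For miR-138 the difference of the measured values at 7d was -0.96 (adjusted p = 0.00485), but the miR was detected on 0 of 6 IR arrays there and on 1 of 6 at 0 h, so it is no measure of size.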

How the results depend on the processing

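In 90 values of the IR effect on miR-210 (5 times under 18 settings) 0 were called higher in IR and 4 lower, all 4 without normalization between arrays. The highest of the 90 was 0.16. The call itself stayed the same otherwise, and an adjusted p of at most 0.05 was kept under 15 of 18 settings at 48 h and 15 of 18 at 7d. It was lost with normexp (0.0687 at 48 h, 0.615 at 7d), with the 16-base probe alone (0.0582 and 0.0669), at 48 h with only the arrays of the 2 groups fitted (0.153) and at 7d with the highest detection limit as floor (0.0527). Without normalization, where values follow array brightness, the IR effect was -1.07 at 0 h, -2.05 at 24 h, -1.53 at 48 h and -2.88 at 7d, its change from 0 h was 1.06 at 2 h, -0.98 at 24 h and -1.81 at 7d, the sham control difference at 2 h was -0.51, and the IR differences from 0 h were -1.37 at 24 h and -1.85 at 7d. miR-21 at 7d was then -1.35 and miR-93 at 48 h -0.041.

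At 24 h the IR effect turned to -0.11 with the mean of processed signals, -0.21 with the 75th percentile over all miRs, -0.10 with quantile normalization, -0.42 with slide as a block, -0.12 with array brightness as a covariate, -0.25 in the authors' table and -0.21 with the 15-base probe. At 0 h it was 0.025 with the 16-base probe. The change of the effect from 0 h to 2 h turned to 0.072 with the mean of processed signals, 0.051 with normexp, 0.24 with the percentile over all miRs, 0.075 with the brightness covariate, 0.25 in the authors' table and 0.048 with the 15-base probe. That to 24 h turned to -0.079 with quantile normalization, -0.21 with slide as a block, -0.0024 with the brightness covariate and -0.071 with the 15-base probe. That to 48 h passed the test with the mean of processed signals (-0.55) and with slide as a block (-0.66), and that to 7d was 0.075 with normexp and passed with the 15-base probe (-0.63). The sham control difference turned at 2 h to -0.0076 with the percentile over all miRs and -0.030 in the authors' table, and with slide as a block to 0.17 at 48 h and 0.017 at 7d. The IR difference at 2 h was -0.039 with quantile normalization. Over the 18 settings the IR difference at 48 h ran from -0.72 to -0.31, with an adjusted p of at most 0.05 under 16. At 7d the IR difference ran from -1.85 to -0.27, with such a p under 17. The highest limma adjusted p was 0.802 at 48 h and 0.535 at 7d. miR-138 turned to 1.03 at 24 h and 1.42 at 7d with normexp. With the highest detection limit as floor miR-138, and miR-20b-5p and miR-93 at 2 h, gave no value. The causes were not tested.

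With each array left out in turn, the IR effect ran from -0.052 to 0.047 at 0 h, from -0.092 to 0.0083 at 2 h, from 0.06 to 0.19 at 24 h, from -0.39 to -0.18 at 48 h and from -0.35 to -0.23 at 7d, with adjusted p-values up to 0.167 at 48 h and 0.114 at 7d. Its change from 0 h ran from -0.092 to 0.014 at 2 h, from 0.06 to 0.20 at 24 h, from -0.39 to -0.17 at 48 h and from -0.35 to -0.23 at 7d. At 48 h the adjusted p also exceeded 0.05 without IR replicate 2 or 6. miR-93 at 2 h came under 2-fold without any of 6 arrays, the lowest value being 0.93, and at 48 h without IR replicate 2 (0.99).

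With replicate number as a block the values of miR-210 were as reported, -0.33 at 48 h (adjusted p = 0.0235) and -0.30 at 7d (0.0359). The pair correlations exceeded 0.1 in 15 of 30 pairs, which does not settle whether the numbers pair the arrays. Same-numbered IR and sham control arrays of a time point were scanned on the same day. The block brought the sham control difference at 24 h, -0.41, to an adjusted p of 0.0464. It changed no other side of the threshold among the miR-210 results.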
